A study of Mus musculus with 6 samples.

Results

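CatSper is the calcium channel of the sperm tail, and the 10 genes described here encode most of its subunits. The list was set by gene name, and the rule uses no measured value: Catsper1, Catsper2, Catsper3, Catsper4, Catsperb, Catsperd, Catsperg1, Catsperg2, Catsperz and Efcab9. All 10 were found among the 55536 genes of the count files, and all 10 were among the 21465 genes that passed a filter on low counts. RNA came from whole testes of 3 KOStra8 and 3 HETStra8 mice aged 7 weeks, with 1 library per mouse. In KOStra8 mice 1 Sel1L allele is floxed and the other deleted (Sel1L flox/∆), and the mice carry Stra8-Cre, an optimized Cre driven by the Stra8 promoter of male germ cells. The series record gives the HETStra8 littermates as Sel1L flox/∆ and names no Cre for them. The study also pools flox/+ mice that carry Stra8-Cre under that name, and no genotype is given for each mouse. All mice of both groups therefore carry at least a floxed allele and, as the record has it, a deleted one. By the study's stainings, SEL1L was lost from spermatocytes and spermatids of KOStra8 mice but remained in spermatogonia and Sertoli cells, whose RNA is also in the libraries.

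CatSper opens when the inside of a sperm cell turns alkaline, and the calcium that enters drives the hyperactivated tail beat needed to reach and penetrate the egg. The pore is built from CATSPER1 to CATSPER4, and male mice that lack any of them are infertile. Large transmembrane auxiliary subunits (CATSPERB, CATSPERD, CATSPERG and CATSPERE) form a canopy over the pore outside the cell, while EFCAB9, an EF-hand calcium sensor, and its partner CATSPERZ sit on the inside. The transcripts are made in developing male germ cells, many of them mainly in spermatids. The membrane subunits are folded in the endoplasmic reticulum (ER), where SEL1L works with the ubiquitin ligase HRD1 in ER-associated degradation. The comparison of KOStra8 with HETStra8 testes asks whether the transcripts of this channel change when germ cells lose SEL1L.

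The pore genes are recognizable by a short stretch of coding sequence, shown here because it is what makes them channel genes. In the 57 bases below, from GENCODE release M21 transcripts on GRCm38, capitals mark the codons for threonine, aspartate and tryptophan of the calcium-selective filter. This spacing of codons was found once in the coding sequence of each of the 4 pore genes and in none of the other 6.
Catsper1, exon 6, plus strand, chr19:5339792-5339848: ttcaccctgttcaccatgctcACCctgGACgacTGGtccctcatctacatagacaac
Catsper2, exon 8, minus strand, chr2:121400147-121400203: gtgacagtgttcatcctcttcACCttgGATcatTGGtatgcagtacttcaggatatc
Catsper3, exons 4 and 5 with the intron between them left out, plus strand, chr13:55804943-55805746: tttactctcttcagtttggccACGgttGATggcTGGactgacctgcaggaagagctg
Catsper4, exon 7, minus strand, chr4:134217808-134217864: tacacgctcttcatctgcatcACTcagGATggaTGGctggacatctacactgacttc

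Catsperg1 and Catsperg2 are near-identical copies for the gamma subunit, so their counts depend on how reads were divided between them. Their coding sequences agree at 3310 of 3432 aligned bases (96.4%), and 11.8% of all stretches as long as a read (150 bases) hold no difference. The 150-base stretch of 1 exon in which the copies differ most is shown because it is where a read can best tell them apart, with the 18 differing bases in capitals.
Catsperg1, exon 15, minus strand, chr7:29195422-29195571: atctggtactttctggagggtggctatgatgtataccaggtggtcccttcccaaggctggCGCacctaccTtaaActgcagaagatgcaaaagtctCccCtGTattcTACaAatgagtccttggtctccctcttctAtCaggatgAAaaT
Catsperg2, exon 15, minus strand, chr7:29710018-29710167: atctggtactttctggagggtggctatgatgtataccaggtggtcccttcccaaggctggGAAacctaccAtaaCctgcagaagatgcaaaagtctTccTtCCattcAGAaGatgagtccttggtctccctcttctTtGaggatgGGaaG

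The members also differ in base composition, which matters for the comparison below. The exons of Catsperb hold 37.7% G and C, the lowest share among the 10, against 45.5% to 53.6% in the other 9. A coding stretch of Catsperb with 33.3% G and C and one of Catsper1 with 60% are shown, the lowest of Catsperb and the highest of Catsper1 within 1 exon, with G and C in capitals.
Catsperb, exon 13, plus strand, chr12:101509177-101509326: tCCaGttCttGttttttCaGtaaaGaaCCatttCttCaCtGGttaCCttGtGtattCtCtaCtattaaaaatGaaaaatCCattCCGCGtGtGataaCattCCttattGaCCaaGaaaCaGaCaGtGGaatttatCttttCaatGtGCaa
Catsper1, exon 1, plus strand, chr19:5336059-5336208: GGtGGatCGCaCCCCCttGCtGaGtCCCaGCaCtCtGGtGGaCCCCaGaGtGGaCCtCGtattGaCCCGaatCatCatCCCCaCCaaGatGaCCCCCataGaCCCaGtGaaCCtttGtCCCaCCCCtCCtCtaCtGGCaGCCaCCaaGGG

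On GRCm38 the genes are spread over 8 chromosomes. The pore genes lie at chr19:5335741-5344280 (Catsper1, plus strand), chr2:121392631-121413792 (Catsper2, minus), chr13:55784568-55808998 (Catsper3, plus) and chr4:134211970-134227383 (Catsper4, minus). The canopy genes lie at chr12:101404653-101626009 (Catsperb, plus), chr17:56628143-56664456 (Catsperd, plus), chr7:29181321-29214035 (Catsperg1, minus) and chr7:29697219-29727032 (Catsperg2, minus). The genes for the inner pair lie at chr19:6922371-6925380 (Catsperz, minus) and chr11:32522751-32532081 (Efcab9, minus).

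The libraries held 28875108 to 36526695 counts, and each member had between 1609 and 12180 counts in a library. Sel1l, the targeted gene, had 1549, 1603 and 1413 counts in the HETStra8 testes and 846, 636 and 741 in the KOStra8 testes, in the order of mouse number 1 to 3 that is kept for all values below. Its lower level of 22.2 ± 1.97 CPM (SD, n = 3) in KOStra8 against 46.4 ± 3.59 CPM in HETStra8 follows the labels. CPM are counts scaled to a common library size with TMM factors. Markers of elongating spermatids summed to between 13380 and 15187 CPM in every library, as a testis with advanced germ cells would give. The groups overlapped in this sum. Of the 9 genes, 8 had log2 fold changes below 0 and 1 above, with a median of −0.07, without the GC and length offsets described below. At an unadjusted p below 0.05, 2 were lower in KOStra8, beside 5.12% of all genes tested. In 3, every KOStra8 value was below every HETStra8 value, beside 8.43% of all genes tested. The groups overlapped in summed markers of round spermatids, with 994 to 1098 CPM in HETStra8 and 1009 to 1074 CPM in KOStra8. Summed markers of Sertoli cells, the nurse cells of the tubule, were higher in HETStra8 (902 to 1103 CPM) than in KOStra8 testes (749 to 876 CPM). Of these genes, 2 of 7 were lower at an unadjusted p below 0.05, beside 5.12% of all genes tested, and all 7 had log2 fold changes below 0. All 6 Leydig cell markers and all 4 macrophage markers were below 0 too, with medians of −0.32 and −0.24, 1 of each list at that p, and summed levels that overlapped between the groups. The part of these cells in the results below was not tested. Markers of epididymis, where released sperm are stored, summed to 8.40 CPM in HETStra8 mouse 1 and to at most 0.327 CPM in every other library. HETStra8 mouse 3 was nearer to the KOStra8 libraries than to its own group: the chi-square per degree of freedom over genes was 9.56 to 12.4 against KOStra8 mice, and 27.7 and 14.2 against HETStra8 mice 1 and 2. In whole testis, fewer spermatids and less RNA per spermatid cannot be told apart.

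All 10 CatSper transcripts were abundant. Per kilobase of annotated exon, they stood between the 80.8th and the 96.9th percentile of the genes tested. Catsper2 was the highest at 88.1 CPM per kilobase over the 6 mice, followed by Efcab9 at 76.6 and Catsper1 at 69.7, and the ranges of neighbours in this order overlapped, although Catsper2 was above Efcab9 within each of the 6 mice. Catsper4 at 55.9 and Catsperz at 51.5 CPM per kilobase came next and overlapped each other, and the whole range of Catsper1 lay above that of Catsper4. Catsperd, Catsperg1 and Catsper3 followed at 41.4, 39.8 and 39.8 CPM per kilobase, all below Catsperz in every mouse. Their ranges overlapped, although Catsperd was above Catsperg1 within each of the 6 mice. Catsperg2 at 30.8 CPM per kilobase was below Catsper3 in all 6 mice, and Catsperb was the lowest at 14.2, a level 6.23-fold below that of Catsper2. These levels rest on the annotated length. With the length of the transcript that has the longest coding sequence, a choice made after the values were seen, Catsper2 and Efcab9 again came first and Catsperb last, at 6.89-fold below Catsper2, but the places between them changed. Catsperz then stood at place 3, Catsperg1 at 4 and Catsper1 at 5, the ranges of Catsper1 and Catsper4 overlapped, and Catsperg2 at 54.8 CPM per kilobase was above Catsper3 at 40.7, so the order of the genes between Efcab9 and Catsperb depends on the length used. The levels of Catsperg1, Catsperg2 and Catsperz also depend on how reads shared between the gamma copies, or with Kcnk4 that overlaps Catsperz, were counted, which is not known.

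**Figure D1:**
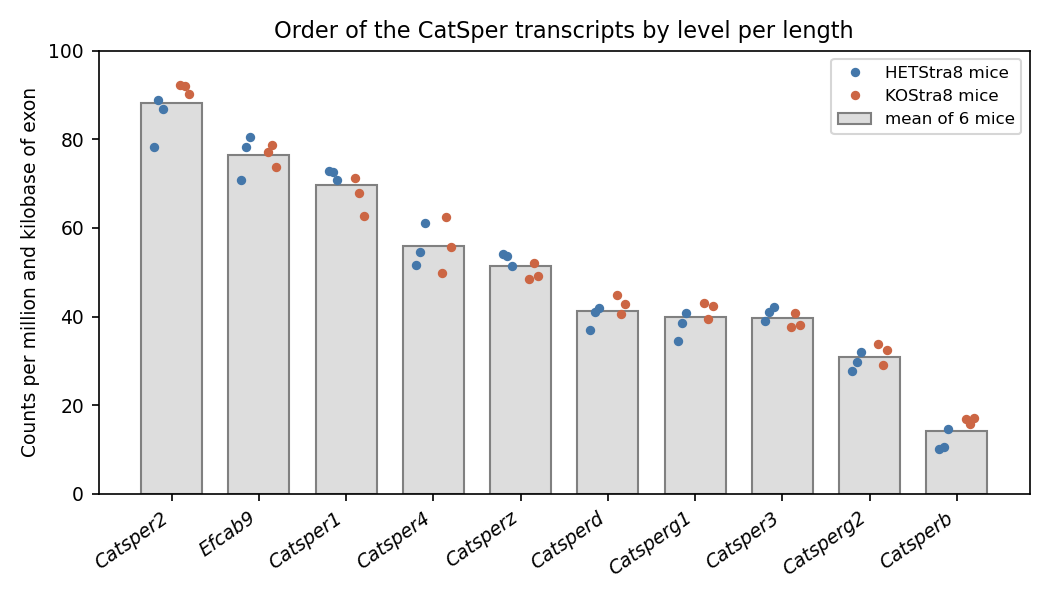
Level of each CatSper transcript in CPM per kilobase of annotated exon (vertical axis from 0), ordered from highest to lowest. Grey bars are the mean of 6 mice, and points are the HETStra8 and KOStra8 mice. Catsper2 is the highest at 88.1 and Catsperb the lowest at 14.2, and the points of the genotypes do not overlap for Catsper2 and Catsperb.

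None of the 10 members passed a 2-fold difference at an adjusted p below 0.01 in the edgeR fit used here. In this fit, 0.00932% of the genes tested passed both cutoffs. The cutoffs are those of the study, which reported many more genes at them than this fit or its alternatives gave. The lack of calls among the members is therefore a result of these fits, and the reason for the gap was not tested. At an unadjusted p below 0.05, 1 of 10 members was higher in KOStra8 testes (Catsperb) and 0 were lower, against 7.13% and 5.12% of all genes tested. At an adjusted p below 0.01 or 0.05 without a fold, 0 of 10 passed, against 0.0186% and 0.0233% of all genes. The fitted log2 fold changes, KOStra8 over HETStra8, ran from −0.10 to 0.49 with a median of 0.047, beside a median of −0.0094 over all genes tested. Of the 10, 7 were above 0 and 3 were below. The 95% intervals of all 10 lay between −0.26 and 0.77 on the log2 scale, so a 2-fold difference in either direction was outside each of them. Summed over the members, the level was 1379, 1493 and 1556 CPM in HETStra8 and 1591, 1539 and 1553 CPM in KOStra8 testes. The groups overlapped, and HETStra8 mouse 1 had the lowest sum.

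**Figure D2:**
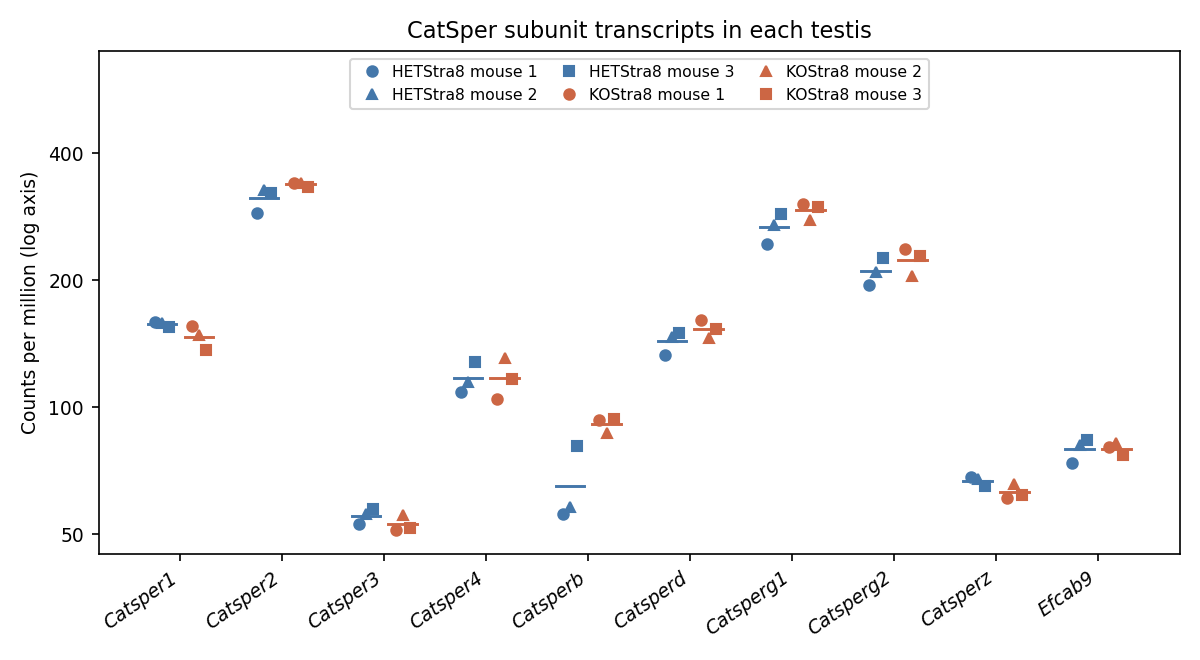
Level of each CatSper transcript in each testis, in CPM on a log axis. Blue points are HETStra8 and orange points KOStra8 mice, shapes mark the mouse number within a group, and lines are group means. The 3 KOStra8 points lie above all HETStra8 points for Catsper2 and Catsperb, and the groups overlap for the other 8 genes.

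Among the pore genes, Catsper1, whose product has the long histidine-rich tail that faces the cell interior, was at 159.5, 158.9 and 155.2 CPM in HETStra8 and at 155.8, 148.5 and 137.1 CPM in KOStra8 testes. The groups met at a single point, where KOStra8 mouse 1 lay just above HETStra8 mouse 3. Its log2 fold change, with 95% interval, was −0.10 (SE 0.0742, interval −0.26 to 0.06, adjusted p = 0.604 in edgeR's quasi-likelihood test). Catsper2, the most abundant pore transcript, was at 289.0, 328.1 and 321.3 CPM in HETStra8 and 341.0, 340.2 and 333.6 CPM in KOStra8 mice. All 3 KOStra8 values lay above all HETStra8 values, with HETStra8 mouse 1 the farthest away. The log2 fold change was 0.11 (SE 0.0701, 95% interval −0.04 to 0.26, adjusted p = 0.529). Among all genes tested, 9.33% had every KOStra8 value above every HETStra8 value, against 2 of the 10 members, and 8.43% had every KOStra8 value below, against 0 of 10.

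The other two pore genes showed no separation. Catsper3 was at 52.97, 55.9 and 57.41 CPM in HETStra8 mice and at 51.28, 55.58 and 51.71 CPM in KOStra8 mice, a log2 fold change of −0.07 (SE 0.0842, 95% interval −0.25 to 0.11). Catsper4 was at 108.7, 114.9 and 128.2 CPM in HETStra8 mice and at 104.8, 131.3 and 117.0 CPM in KOStra8 mice, a log2 fold change of 0.0048 (SE 0.0939, 95% interval −0.20 to 0.21). The highest and the lowest values of Catsper4 were both in KOStra8 mice, and its sign depended on which mouse was left out.

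Catsperb, which encodes the beta subunit of the canopy, differed most between the groups. It had 1754, 1956 and 2700 counts in HETStra8 and 3257, 2516 and 3429 counts in KOStra8 testes. As levels, these were 55.8, 58.13 and 81.02 CPM in HETStra8 and 93.25, 86.92 and 93.92 CPM in KOStra8 mice. The groups did not overlap, and HETStra8 mouse 3 lay nearer to the KOStra8 values than to the other HETStra8 values. Group means were 65.0 ± 13.9 CPM for HETStra8 and 91.4 ± 3.87 CPM for KOStra8 testes (SD, n = 3 each). The log2 fold change was 0.49 (SE 0.126, 95% interval 0.22 to 0.77, unadjusted p = 0.0022, adjusted p = 0.191 in edgeR's quasi-likelihood test), which did not pass the adjusted threshold. Without HETStra8 mouse 3 it was 0.69 with an adjusted p of 0.000116 in the same test, still under 2-fold, and without HETStra8 mouse 1 it was 0.39 with an adjusted p of 0.325.

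The difference in Catsperb lay along a trend that ran through all genes. Log2 fold changes were higher for genes poor in G and C, and the rank correlation with GC content (Spearman's rho) was −0.472 over 21457 genes. Genes are no independent replicates, so this is a description. In the class below 40% G and C, to which Catsperb belongs, the median log2 fold change was 0.37 over 1094 genes, and 31.6% of them were higher in KOStra8 at an unadjusted p below 0.05. The trend differed between libraries in the order in which Catsperb differed. The Spearman rho between GC content and the deviation of a library from the mean of all 6 was 0.399, 0.293 and −0.0545 in the HETStra8 libraries and −0.245, −0.189 and −0.379 in the KOStra8 libraries. With offsets for GC content and transcript length in the fit, the log2 fold change of Catsperb was 0.11 (SE 0.0722, 95% interval −0.05 to 0.26, adjusted p = 0.824). The trend also differed between the genotypes, so the offsets may take out a genotype difference too. An effect of the libraries and a genotype difference in genes poor in G and C cannot be told apart here. The cause was not tested.

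The sum over a list of leptotene and zygotene spermatocyte markers was also higher in KOStra8 testes, but the genes of the list did not move together. The list of 5 summed to 182, 244.5 and 374 CPM in HETStra8 and to 426.2, 436.2 and 424.2 CPM in KOStra8 testes, through Sycp1 and Sycp3 at log2 fold changes of 0.97 and 0.49, and 0 of 5 passed an unadjusted p of 0.05. Sycp1 and Sycp3 hold 35.6% and 35.7% G and C, and with the GC and length offsets they were at 0.53 and 0.04. The other 3 markers, Dmc1, Meiob and Prdm9, were at 0.03, 0.05 and −0.15 without the offsets. With them these 3 were at −0.13, −0.25 and −0.17. Meiob was then at an unadjusted p of 0.0356 in edgeR's test, beside 2.77% of all genes lower at a p below 0.05. The part of these cells in the result for Catsperb was not tested. With the same offsets, the Sertoli cell markers Sox9 and Wt1 were at 0.01 and 0.05, and Amh, Clu, Rhox5, Cldn11 and Inha stayed below 0. Of the macrophage markers, Csf1r was then at 0.006, and Adgre1, Cd68 and C1qa stayed below 0. Every Leydig cell marker stayed below 0. Of the elongating spermatid markers, Prm1, Prm2, Tnp1, Tnp2 and Tssk6 were then at 0.09, 0.08, 0.06, 0.15 and 0.006. Odf1, Gapdhs, Oaz3 and Smcp stayed below 0. At an unadjusted p below 0.05, Tnp2 was then higher and Oaz3 lower, beside 4.03% and 2.77% of all genes.

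**Figure D3:**
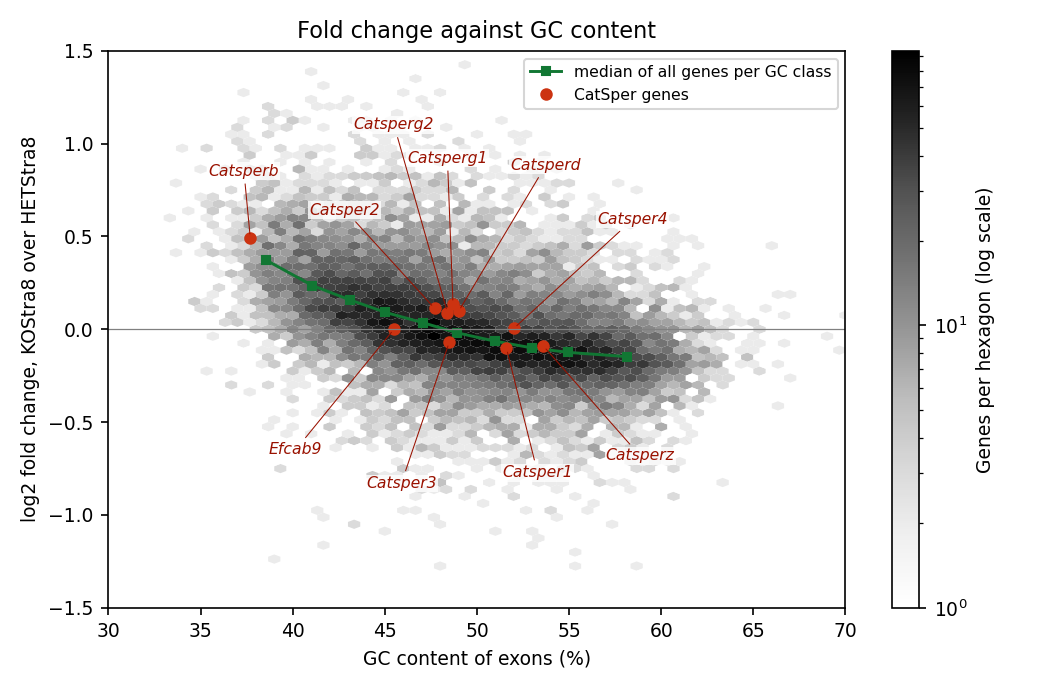
Log2 fold change of KOStra8 over HETStra8 (vertical axis) against the GC content of a gene's exons in percent (horizontal axis) for 21457 genes, shaded by the number of genes per hexagon, of which 109 lie outside the axes. Green squares are the medians of all genes per GC class, and red points are the CatSper genes. Catsperb, at 37.7% G and C, lies at the high end of the falling trend, near the median of 0.37 of its class.

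The remaining canopy genes had values that overlapped between the groups. Catsperd, for the delta subunit, was at 133.1, 147.1 and 150.5 CPM in HETStra8 mice and 161.1, 145.9 and 153.4 CPM in KOStra8 mice, a log2 fold change of 0.10 (SE 0.0774, 95% interval −0.07 to 0.26). Catsperg1 was at 243.3, 271.1 and 287.7 CPM in HETStra8 and 304.0, 277.9 and 298.9 CPM in KOStra8 mice, a log2 fold change of 0.14 (SE 0.0771, 95% interval −0.03 to 0.30). Catsperg2 was at 194.8, 209.7 and 225.6 CPM in HETStra8 and 237.7, 204.3 and 228.5 CPM in KOStra8 mice, a log2 fold change of 0.09 (SE 0.0808, 95% interval −0.08 to 0.26). In all 3 genes HETStra8 mouse 1 was lowest and KOStra8 mouse 1 highest. Without HETStra8 mouse 1 the log2 fold changes were 0.04 for Catsperd, 0.07 for Catsperg1 and 0.04 for Catsperg2, and 0.06 for Catsper2, and without HETStra8 mouse 3 they were 0.14, 0.20, 0.15 and 0.14.

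The division of counts between the gamma copies was steady. Catsperg1 took 55.5%, 56.4% and 56% of the pair's counts in HETStra8 and 56.1%, 57.6% and 56.7% in KOStra8 testes. Counted as 1 gene, the pair gave 0.12 on the log2 scale (SE 0.0755, adjusted p = 0.554), close to that of either copy. Both copies lie near Ryr1, an ER calcium channel gene that was higher in KOStra8 testes. Ryr1 was at 26.8 ± 5.28 CPM in KOStra8 against 7.25 ± 1.30 CPM in HETStra8 testes (log2 fold change 1.89, adjusted p = 0.00061 in edgeR's test). Only 56.1 kb separate Ryr1 from Catsperg1, and 572 kb separate it from Catsperg2. Sirt2, 393 kb from Catsperg1, was also higher in KOStra8 testes (log2 fold change 0.66, adjusted p = 0.000808 in edgeR's test). The intervals of both copies included 0 in the fit without GC and length offsets. With the offsets, the interval of Catsperg1 was 0.0009 to 0.29, and that of Catsperg2 included 0.

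Of the inner pair, Catsperz was at 68.27, 67.7 and 64.97 CPM in HETStra8 mice and 61.18, 65.81 and 61.9 CPM in KOStra8 mice, a log2 fold change of −0.09 (SE 0.0798, 95% interval −0.26 to 0.08). Its partner Efcab9 was at 73.97, 81.58 and 83.93 CPM in HETStra8 mice and 80.45, 82.22 and 77 CPM in KOStra8 mice, a log2 fold change of 0.00089 (SE 0.0814, 95% interval −0.17 to 0.18). The means of Efcab9, 79.8 ± 5.21 and 79.9 ± 2.66 CPM, were the closest among the 10. Catsperz shares 46.5% of its exon bases with Kcnk4, a potassium channel gene on the same strand, which had 0.469 and 0.707 CPM in the group means.

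**Figure D4:**
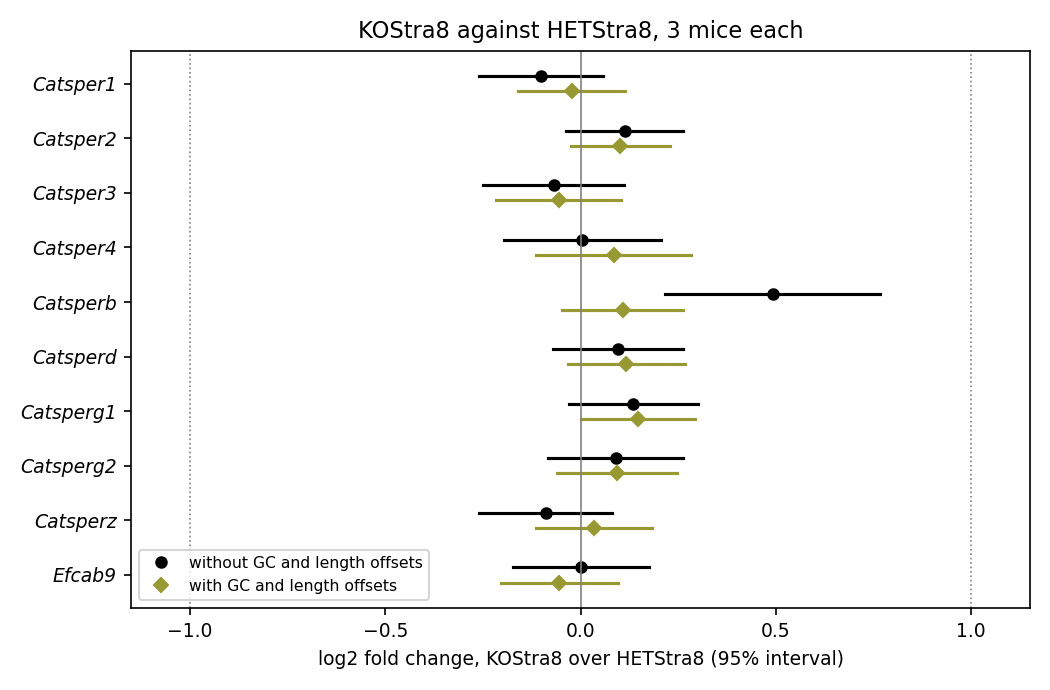
Log2 fold change of each CatSper gene, KOStra8 over HETStra8, with its 95% interval, from the fit without (black circles) and with (olive diamonds) offsets for GC content and transcript length. Dotted lines mark a 2-fold difference, which every interval excludes. Catsperb is the only gene that moves far between the fits, from 0.49 to 0.11.

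With the GC and length offsets, the range of the members narrowed, mainly through Catsperb, and their median moved up from 0.047. Their log2 fold changes then ran from −0.06 (Catsper3) to 0.15 (Catsperg1), with a median of 0.089 beside 0.0043 over all genes. Catsperg1 was then at an unadjusted p of 0.0488 (adjusted p = 0.732 in edgeR's test), 1 of 10 members, beside 4.03% of all genes higher at that p. Catsperz and Efcab9 changed sign, to 0.04 and −0.05, with intervals that included 0 in both fits.

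Other genes of the channel complex, from a list of 6, were also below the cutoffs, with 0 of 6 past them. All 6 had log2 fold changes above 0, with a median of 0.19, and 3 of 6 were higher at an unadjusted p below 0.05, beside 7.13% of all genes tested. With the GC and length offsets 4 of 6 were above 0, with 1 higher and 1 lower at that p, beside 4.03% and 2.77% of all genes in that fit. C2cd6, the tau subunit that carries the complex into the flagellum, was at 207.4, 231.1 and 285.1 CPM in HETStra8 mice and 328.1, 286.8 and 343.6 CPM in KOStra8 mice. The KOStra8 values lay above the HETStra8 values, by 0.41 on the log2 scale (SE 0.112, adjusted p = 0.216). Catspere2, for an epsilon subunit, was at 51.35, 39.47 and 57.86 CPM in HETStra8 mice and 68.2, 64.98 and 66.64 CPM in KOStra8 mice, without overlap, at 0.43 (SE 0.118, adjusted p = 0.197). Slco6c1, a transporter-like protein attached to the channel, gave 0.19 (SE 0.0867, adjusted p = 0.388) with overlapping groups.

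The genes of this list that differed most are also poor in G and C, with 38% in Slco6c1, 41.1% in Catspere2 and 42% in C2cd6. With the GC and length offsets, C2cd6 was at 0.21 (unadjusted p = 0.010), Catspere2 at 0.18 (unadjusted p = 0.109) and Slco6c1 at −0.19 (unadjusted p = 0.0111), and the adjusted p of each was at least 0.592. Catspere1, which the annotation lists as a pseudogene and which shares 25.1% of its 50-base sequences with Catspere2, was at 0.18 (SE 0.156), or −0.11 with the offsets at a GC content of 40.4%. Tmem249 and Tmem262, small membrane subunits of the complex, were at 0.11 (SE 0.116) and 0.06 (SE 0.149).

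Genes that set the pH, voltage and calcium signals around CatSper were described with a list of 20. None passed the cutoffs, 1 was higher and 2 were lower at an unadjusted p below 0.05, beside 7.13% and 5.12% of all genes, and their median log2 fold change was −0.03. Every KOStra8 value was above every HETStra8 value in 1 gene and below in 3, beside 9.33% and 8.43% of all genes. With the GC and length offsets 2 of 20 were above 0, with a median of −0.051. At that p 0 were then higher and 1 lower, beside 4.03% and 2.77% of all genes. Slc9c1, the sperm sodium/proton exchanger that makes the cell interior alkaline, was at 122.9, 135.2 and 149.4 CPM in HETStra8 mice and 170.1, 165.2 and 176.3 CPM in KOStra8 mice. Its groups did not overlap, and the log2 difference was 0.33 (SE 0.0820, adjusted p = 0.156), or −0.0044 with the GC and length offsets at a GC content of 39.1%. The next highest were Hvcn1, a proton channel gene with only about 1 CPM, at 0.18 (SE 0.425), and Slc9b1, another sodium/proton exchanger, at 0.06 (SE 0.0724). The lowest were Prkaca, a catalytic subunit of protein kinase A, at −0.19 (SE 0.0852, adjusted p = 0.388), Akap3, a scaffold of the fibrous sheath, at −0.16 (SE 0.0675, adjusted p = 0.377), and Atp1a4, the sperm sodium pump, at −0.14 (SE 0.0698, adjusted p = 0.443). The groups did not overlap for Akap3 and Atp1a4. With the offsets, Prkaca, Akap3 and Atp1a4 were at −0.08, −0.10 and −0.09.

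The positions of the members brought a few other genes into view. Catsper2 and Pdia3, the gene for an ER chaperone of glycoproteins, start head to head and share the 18 bases at chr2:121413775-121413792, read here on the minus strand of Catsper2, shown because both transcripts begin in them.
Catsper2 and Pdia3, shared start: ttaggcgaacgcccgccg
Pdia3 was at 353 ± 13.7 CPM in HETStra8 and 372 ± 5.52 CPM in KOStra8 testes (SD, n = 3 each), 0.07 on the log2 scale (SE 0.0653, adjusted p = 0.683), beside 0.11 for Catsper2. Of the 23 genes that overlap a member or are the nearest tested on either side, 0 passed the cutoffs and 3 were at an unadjusted p below 0.05, a share near the 12.3% of all genes tested. Tc2n, 19434 bases from Catsperb, was higher at 0.58 (SE 0.142, adjusted p = 0.150), and 0.19 with the GC and length offsets. Gpr137 beside Catsperz was lower at −0.29 (SE 0.0800, adjusted p = 0.193), and Stk10 beside Efcab9 at −0.25 (SE 0.0762, adjusted p = 0.231). Catsperb shares 9.27% of its 50-base sequences with the nearby pseudogene Gm18795, whose log2 fold change was 0.39 with an SE of 0.69.

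In RefSeq promoters of GRCm38, from 250 bases before to 50 after a start, 8 of the 10 members had an entry, Catsper1 and Catsperg2 not. The full cyclic-AMP response element TGACGTCA, which the spermatid activator CREM binds, was in the promoters of 0 of these 8 members and in 1.79% of 32851 promoters, searched on both strands. The shorter TGACGT, which the full element contains, was in that of Catsperd alone and in 7.51% of all promoters, and TATAAA was in that of Catsperg1 alone and in 13.6% of all.

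Across the 6 mice the members varied in different ways. Log2 levels of Catsperd and Catsperg1 followed each other most closely (Pearson r = 0.973), while Catsperz ran opposite to Catsperg1 (r = −0.902). The mean standardized level of the members was lowest in HETStra8 mouse 1, at −0.903, and between −0.124 and 0.492 in the other 5. Among 10003 genes at 10 CPM or more, 4930442L01Rik (Pearson r = 0.993) and 4931409K22Rik (r = 0.988) were among those most like this mean over the 6 mice. These correlations are descriptions over 6 points that share their libraries and the GC trend described above.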

How the data were processed

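The authors isolated poly(A)+ RNA from testis, made directional libraries and sequenced them in paired-end reads of 150 bases. They deposited raw counts, 1 table per mouse with the whole number of reads on each of 55536 Ensembl genes. The submitters' processing notes name FastQC, Trimmomatic, STAR 2.7.1a, Picard 2.20.4, StringTie 2.0.4, featureCounts 1.6.0, HTSeq, ChIPseeker and the builds mm10 and GRCm38, without roles. Which counter made the deposited counts, and its strand and multimapping settings, are not given in the sources used here.

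Symbols, positions, GC content, exon lengths and coding sequences came from GENCODE M21 (GRCm38). Groups were compared with edgeR 4.0.16 in R 4.3.3 (filterByExpr, TMM, robust quasi-likelihood F test, two-sided, genotype as the only term, all 6 mice), with Benjamini-Hochberg adjustment over 21465 genes. Intervals are 95% intervals from the moderated degrees of freedom and cover the spread between mice. An exact permutation test of 3 against 3 mice cannot give a p below 0.1. Alternatives were DESeq2 1.42.0, limma-voom (limma 3.58.1), other scalings and filters, offsets from a loess curve per library (span 0.3) on GC content and length, the replicate number as a block, and each mouse left out. The steps were tested on simulated data. Genes named are all members, Sel1l, the genes of the channel complex list, the 3 highest and 3 lowest of the signalling list, neighbours and overlapping genes, and the 3 genes most like the members, of which 1 is not reported here. Others (Ryr1, Sirt2 and cell type markers such as Sycp1) were named after their values were seen. Members and lists were chosen with earlier results of these data known.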

Additional observations from a re-analysis of the deposited data

How the results depend on the processing

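None of the 10 members passed the study's cutoffs under any of the alternatives, with DESeq2 and limma-voom included, and 1 did at an unadjusted p below 0.05 without a fold. Over all genes, 2 passed these cutoffs, against 39 without a filter on low counts, 14 in DESeq2, 5 with the replicate block and 1 to 44 with a mouse left out, the most without HETStra8 mouse 3. The median log2 fold change of the members stayed between −0.0048 (without HETStra8 mouse 1) and 0.11 (without HETStra8 mouse 3). Catsperb stayed above 0 in all 16 alternatives, from 0.11 to 0.69, with adjusted p-values from 2.59e-05 to 0.891. Its adjusted p was below 0.01 without a filter on low counts (2.59e-05 at 0.50) and without HETStra8 mouse 3, and between 0.01 and 0.05 in DESeq2 (0.0115). Members near 0 changed sign: Catsper4 to −0.0013 in limma-voom and between −0.075 and 0.089 with a mouse left out, Catsperz to 0.04 with the GC and length offsets, and Efcab9 to −0.05 with those offsets and between −0.052 and 0.049 with a mouse left out; the cause was not tested beyond the offsets themselves.

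With the replicate number as a block, 0 members passed the cutoffs, the median was 0.046 and Catsperb was at 0.51 (adjusted p = 0.0340). With the block and the offsets together, Catsperb was at 0.11 (adjusted p = 0.891), Catsperz at 0.035 and Efcab9 at −0.054. The labels do not say that equal numbers mark a pair. Deviations of same-numbered mice correlated at −0.0601, −0.0525 and 0.108, within the −0.116 to 0.155 of differently numbered mice. With 3 mice per group and a GC trend in the libraries, this cannot decide whether mice were paired.

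Each group has 3 mice, so differences much smaller than the intervals given were not detectable. Reads from whole testis do not separate cell types, and transcript levels do not measure channel protein.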
